A study of Mus musculus with 21 samples.

Results

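The comparison described here set microglia of Fgg γ390–396A mice at 1 d post-CCI against microglia of sham mice. Its members were 6 of the 21 libraries of the study, chosen by their column labels: 3 libraries from mutant mice at 1 d and 3 from sham mice. CCI, controlled cortical impact, is a model of traumatic brain injury in which a piston strikes the exposed cortex. The mutant mice carry a γ390–396A allele of Fgg, the gene of the fibrinogen γ chain, an alteration of the site through which fibrinogen engages the integrin CD11b/CD18 that leaves clotting intact. The sham mice were wild type (WT) and had the surgery, with the skull opened, but no blow. No microglia of uninjured Fgg γ390–396A mice were analysed here, so the effect of the allele and the effect of the injury cannot be told apart in this contrast. The labels and methods give no day after surgery for the sham libraries, so time since surgery may differ too. Mice were C57BL/6 males of 17 to 24 weeks. For each library, tissue of 2 brains was pooled at random, and cells were sorted from the pool as CD45low CD11b+. A further group, 3 libraries of WT microglia at 1 d post-CCI, is given where it shows what the contrast with sham cannot separate.

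Microglia are the resident macrophages of the brain. In the uninjured brain they express a characteristic set of surface receptors, such as the purine receptor P2RY12, and depend on TGF-β signaling for that state. After injury they are known to lose part of this set, to secrete chemokines that attract leukocytes, and to enter the cell cycle. Fibrin, the polymer made from fibrinogen when blood leaks into tissue, is recognized by CD11b/CD18 on microglia.

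The values are CPM, salmon's estimated gene counts scaled to the effective size of each library, its total counts times its TMM factor. The TMM factor is edgeR's scaling between libraries. Transcript length is already divided out in these counts, so that levels can be compared between genes. Total counts were 26815203 to 51875767 in the mutant libraries, 18896957 to 28550018 in the sham libraries and 23594176 to 36729567 in the WT libraries at 1 d. Ribosomal RNA genes took 47.1% to 52.4%, 43.4% to 47.8% and 50.6% to 58.5% of them. In these 9 libraries 3 counts, taken as the floor of detection, came to 0.0448 to 0.121 CPM, a limit that covers counting error only.

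The sorted cells carried the defining markers of microglia in all 9 libraries. The summed level of 12 microglia markers was 7920 to 9103 CPM in the mutant libraries, 13299 to 15648 CPM in the sham libraries and 6147 to 7839 CPM in the WT libraries at 1 d, and 5 of the 12 were called lower in mutant than in sham microglia. Without the genes of chromosome 3, 3 of 9 microglia markers were called lower. Markers of other cells were far lower, and for several of them 1 library stood apart. The 15 neutrophil markers summed to 106 to 440 CPM in mutant and 160 to 823 CPM in sham libraries, with the top value in sham replicate 3, and none was called. The 12 markers of border-associated macrophages summed to 254 to 317 CPM against 150 to 449 CPM, also with the top in sham replicate 3 and none called. The 15 monocyte markers summed to 85.9 to 154 CPM in mutant and 19.1 to 84.4 CPM in sham libraries. Of these, Fn1, Ms4a6c and Thbs1 were called higher, whereas the defining monocyte genes Ly6c2 and Ccr2 overlapped between the groups. Ly6c2 read 9.07, 0.227 and 0.362 CPM in mutant against 0.478, 0.152 and 8.15 CPM in sham libraries, and Ccr2 27.7, 1.41 and 2.65 against 4.05, 3.83 and 8.27 CPM. Astrocyte markers were lower, with a sum of 18.5 to 24.0 CPM against 45.5 to 54.9 CPM over 9 genes, of which Slc1a3, Aldoc and Slc1a2 were called lower and Gfap higher. Oligodendrocyte markers were level in sum (24.6 to 31.3 against 25.5 to 31.7 CPM, 10 genes), although Mobp was called higher. Lymphocyte markers summed to at most 12.5 CPM, neuron markers to at most 9.66 CPM and endothelial markers to at most 17.1 CPM in the 6 libraries, with no gene called. Genes of red blood cells reached 12.5 CPM in mutant and 34.5 CPM in sham libraries, and none was called. In sorted pools such as these, fewer cells of a type and less RNA per cell cannot be told apart.

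Fgg itself (ENSMUSG00000033860, chromosome 3, 83007724 to 83015049, as all gene positions here in GRCm38 with the GENCODE M21 annotation) was at the edge of detection. It had 6, 2 and 4 counts in the mutant libraries and none in the sham and WT libraries, and no fold is given. The 2 chains of its receptor differed little. Itgam, which encodes CD11b, read 354, 442 and 388 CPM in mutant and 246, 229 and 327 CPM in sham libraries. The mutant libraries were all above the sham libraries, by 0.56 on the log2 scale (SE 0.16, edgeR adjusted p = 0.027), short of the fold asked of a call. Itgb2, which encodes CD18, read 86.4, 94.3 and 96.5 against 73.6, 75.4 and 102 CPM, and the groups overlapped (log2 difference 0.14, SE 0.14). Without TMM scaling that difference was -0.28.

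Of 23815 genes tested, 1582 (6.64%) were called, by a log2 fold change beyond 1 in either direction at an adjusted p under 0.05 (edgeR, quasi-likelihood test, Benjamini-Hochberg). Microglia of injured mutant mice had 1308 of them higher (5.49% of genes tested) and 274 lower (1.15%). The median log2 fold change was 1.59 among the higher genes and -1.38 among the lower ones, against 0 over all genes tested. Protein-coding genes made up 1097 of the higher and 239 of the lower calls, and pseudogenes 180 and 8. The split depended on how libraries were scaled. The scaling factors of the sham libraries (1.39 to 1.55) lay above those of the mutant libraries (0.928 to 1.29), and with library size alone the median of all genes moved by -0.41 on the log2 scale and the calls became 574 higher and 732 lower (43.95% higher, against 82.7%). With DESeq2's size factors, which moved that median by -0.12, 1059 were higher and 418 lower (71.7% higher). DESeq2's own test gave 1324 and 801 (62.3% higher), and a fit of the 2 groups alone 1195 and 464 (72.0% higher).

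**Figure D1:**
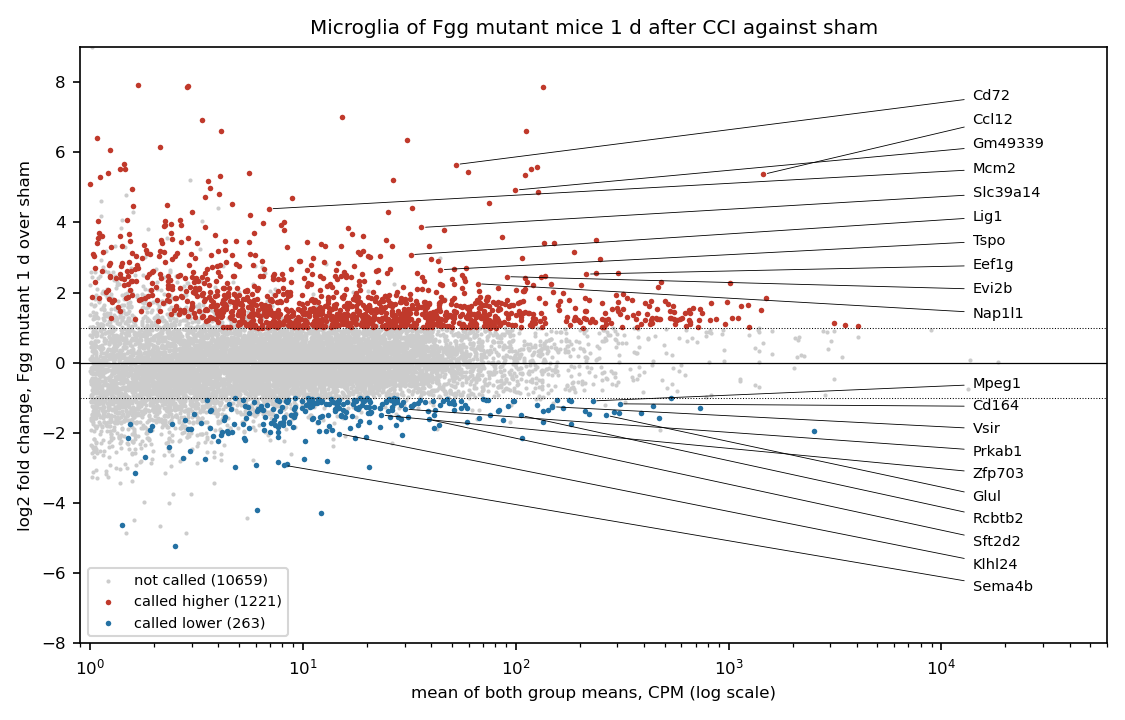
Log2 fold change of mutant microglia at 1 d over sham (y axis) against the mean of the 2 group means in CPM (x axis, log scale), for genes with a mean of at least 1 CPM and without ribosomal RNA genes. Red points are called higher (1221 plotted) and blue points called lower (263), dotted lines mark a log2 fold change of 1 and -1, labels name the 20 genes with the smallest adjusted p, and 39 genes, nearly all small RNAs or pseudogenes at 0 in one group, lie beyond the y axis.

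Among higher protein-coding genes whose groups did not overlap, the smallest adjusted p belonged to Slc39a14 (ENSMUSG00000022094, chromosome 14, 70303469 to 70351425). This gene encodes a zinc and iron importer. Its level was 45.1, 81.4 and 75.6 CPM in the mutant libraries and 3.41, 4.78 and 5.73 CPM in the sham libraries. All 3 mutant libraries were far above sham, by 3.86 on the log2 scale (SE 0.23, edgeR adjusted p = 1.1e-08). The chemokine Ccl12, a ligand of CCR2 (chromosome 11, 82101845 to 82103400), reached 1938, 2554 and 4037 CPM against 62, 63.9 and 80.4 CPM, a log2 fold change of 5.37 (SE 0.40, edgeR adjusted p = 1.1e-07). At 2843 ± 1079 CPM (SD, n = 3) it was the most abundant of the 10 higher genes named by this rule. Tspo, the mitochondrial outer membrane protein used as an imaging target for glial activation, rose from 12.1 ± 0.445 to 76.2 ± 18.9 CPM (log2 fold change 2.65). Replication genes stood beside it. Mcm2, a subunit of the replicative helicase, read 9.85, 16.8 and 13 CPM against 0.733, 0.38 and 0.754 CPM, and the DNA ligase Lig1 47.3, 56.5 and 68 against 6.6, 7.02 and 6.69 CPM. The surface lectin Cd72 went from 2.02 ± 1.06 to 103 ± 32.1 CPM, the highest fold change of the 10 (log2 fold change 5.65, SE 0.46). Eef1g, a translation elongation factor subunit, Evi2b, a membrane protein of blood cells, the histone chaperone Nap1l1 and the predicted gene Gm49339 completed the 10, with log2 fold changes of 2.53, 2.45, 2.25 and 4.92.

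Among lower genes chosen by the same rule, Glul (ENSMUSG00000026473, chromosome 1, 153899944 to 153909723), which encodes glutamine synthetase, had the smallest adjusted p. It read 144, 133 and 140.1 CPM in mutant libraries and 513, 281 and 384 CPM in sham libraries, a log2 fold change of -1.50 (SE 0.18, edgeR adjusted p = 1.6e-05). Glul is also abundant in astrocytes, whose markers were lower in the same libraries as given above, and the part of those cells was not tested. Vsir, which encodes the immune checkpoint VISTA, fell from 209 ± 42.1 to 87.8 ± 15.9 CPM (log2 fold change -1.25), and the sialomucin gene Cd164 from 426 ± 17.1 to 189 ± 21.5 CPM (-1.17). Mpeg1, which encodes the pore-forming protein perforin-2, read 142, 143 and 155 against 258, 279 and 399.6 CPM, a log2 fold change of -1.09 that was no longer past the threshold without sham replicate 3. The 6 others were Sft2d2, the repressor Zfp703, the AMPK subunit Prkab1, the ubiquitin ligase adaptor Klhl24, the semaphorin Sema4b and Rcbtb2, with log2 fold changes of -1.61, -1.49, -1.32, -2.02, -2.92 and -1.50.

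**Figure D2:**
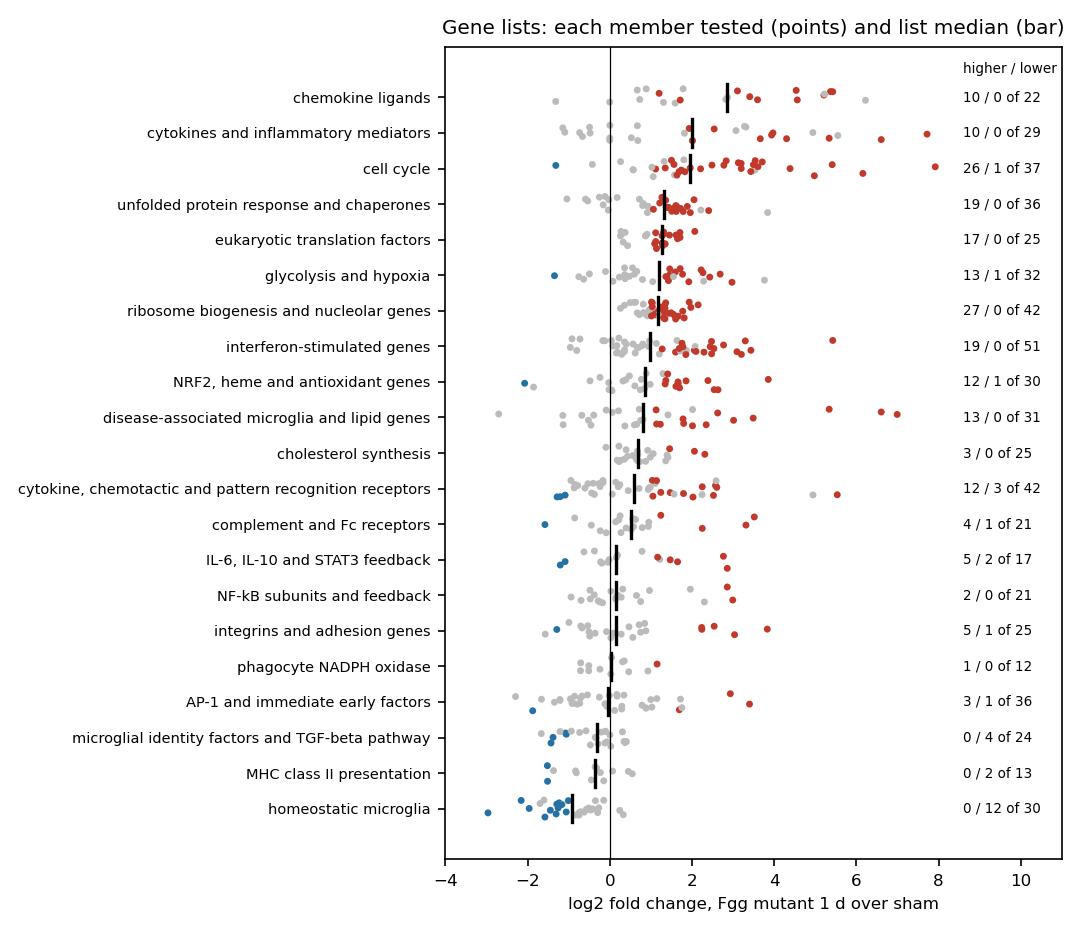
Log2 fold change of mutant microglia at 1 d over sham for each tested member of the 21 gene lists, sorted by the list median (black bar). Red points are called higher, blue points called lower and grey points not called, and the text at the right gives the called members, from 10 of 22 chemokine ligands higher at the top to 12 of 30 homeostatic genes lower at the bottom.

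Over the 21 gene lists written for this comparison, 574 genes were tested. Of these, 192 were higher and 24 lower (37.6% called, against 6.64% of all genes tested). The share called came nearest to that of all genes for the phagocyte NADPH oxidase (8.33%) and NF-κB subunits and feedback (9.52%). Next were AP-1 and immediate early genes (11.1%) and cholesterol synthesis (12%). Genes that mark the homeostatic state of microglia were lower or not called. Of 30 tested, 12 were lower and none higher, and the list median was -0.92. P2ry12 (ENSMUSG00000036353, chromosome 3, 59216272 to 59262871), the purine receptor that guides microglial processes to damage, read 1632, 724 and 727 CPM in mutant and 4021, 3954 and 4021 CPM in sham libraries. Mutant replicate 1 had the highest level of its group, and none reached sham. The log2 fold change was -1.96 (SE 0.44, edgeR adjusted p = 0.0051). The sialic acid lectin gene Siglech, named after its values were seen, read 375, 193 and 227 CPM against 709, 588 and 569.9 CPM, and mutant replicate 1 was again the highest of its group. The adhesion ligand Selplg fell from 1043 ± 134 to 427 ± 74.2 CPM (log2 fold change -1.29, edgeR adjusted p = 0.0047). Gpr165, an orphan receptor, fell from 28.7 ± 5.64 to 6.42 ± 2.94 CPM (-2.15), and the tetraspanin gene Upk1b had the lowest fold change (-2.96), with 9.68, 2.37 and 1.73 CPM against 43.7, 37.1 and 28 CPM. P2ry13, also a purine receptor, was at the edge of the threshold (-1.01). Tmem119, a transmembrane marker of microglia, read 321, 293 and 245 CPM against 445, 443 and 639 CPM and was not called (log2 difference -0.83, edgeR adjusted p = 0.063), although no mutant library reached sham. Mertk, a receptor for the uptake of dying cells, read 96.4, 95.9 and 101 against 149.8, 149.7 and 178 CPM, a log2 difference of -0.70 (edgeR adjusted p = 0.0084) that was short of the fold asked. Both were called lower without TMM scaling. The count of 12 dropped to 7 without mutant replicate 3. It includes Fcrls, treated with the genes of chromosome 3 below, and without that chromosome 10 of 24 were lower.

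Of 24 genes for microglial identity factors and the TGF-β pathway, 4 were lower and none higher (median -0.31). Tgfbr1, the TGF-β receptor kinase, read 211, 156 and 128 CPM in mutant and 432, 432 and 468 CPM in sham libraries, a log2 fold change of -1.43 (SE 0.22, edgeR adjusted p = 0.00023). The transcription factor genes Maf, Mef2a and Sall1 had log2 fold changes of -1.38, -1.07 and -1.06. Sall1, which is known to maintain microglial identity, read 126, 92 and 85.3 against 205, 214 and 213 CPM. The count was 2 without mutant replicate 2 or without mutant replicate 3.

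Of 22 chemokine ligands, 10 were higher and none lower. Their median of 2.84 was the highest of the lists, but it was 2.05 without mutant replicate 3, when that of cytokines was 2.23. Ccl2 (chromosome 11, 82035571 to 82037453), the main attractant of CCR2 monocytes, read 101, 98.9 and 229.9 CPM in mutant libraries and 11.4, 3.0 and 3.77 CPM in sham libraries. Every mutant library was above every sham library, with replicate 3 the highest, and the log2 fold change was 4.56 (SE 0.47, edgeR adjusted p = 3.6e-06). Ccl3 and Ccl4, the macrophage inflammatory proteins, followed the same order. Ccl3 read 184, 163 and 397 CPM against 21.9, 22.3 and 26 CPM (3.41), and Ccl4 115, 109 and 256 CPM against 19.4, 10.1 and 10.2 CPM (3.59). Cxcl10, an interferon-induced ligand of CXCR3, reached 49.2, 57.6 and 244 CPM against 3.22, 1.59 and 3.29 CPM, and mutant replicate 3 held most of the signal. Ccl9 was the smallest change past the threshold, from 45.9 ± 2.27 to 106 ± 21.9 CPM (1.20). The neutrophil attractant Cxcl2, named after its values were seen, was in the other part of the list: it read 25.6, 23.8 and 18.4 CPM in mutant and 2.14, 0.304 and 6.96 CPM in sham libraries and was not called (edgeR adjusted p = 0.058).

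Of 29 genes of cytokines and other inflammatory mediators, 10 were higher and none lower (median 2.00). Spp1, which encodes the secreted phosphoprotein osteopontin, went from 0.861, 1.25 and 4.55 CPM in sham to 112, 334 and 215 CPM in mutant libraries. This was a log2 fold change of 6.60 (SE 0.63, edgeR adjusted p = 1.4e-06). Ptgs2 (chromosome 1, 150100031 to 150108227), the inducible cyclooxygenase that starts prostaglandin synthesis, read 4.86, 6.42 and 12.5 CPM against 0.0956, 0.152 and 0.302 CPM, a fold change of 5.34 on the log2 scale from a very low base. Il1rn, the secreted antagonist of interleukin-1, rose from 2.4 ± 1.99 to 48 ± 14.2 CPM (4.30). Tnf read 30.0, 21.2 and 43.1 CPM against 4.62, 1.78 and 1.06 CPM (3.66). Il1b was the smallest change past the threshold (1.93), with 43.5, 22.7 and 54.7 CPM against 6.6, 6.8 and 18.2 CPM, and its call was lost without mutant replicate 1 or 3 and without sham replicate 1 or 2. Ptges, the prostaglandin E synthase, had 0.134, 2.29 and 0.0804 CPM in mutant libraries and no count in sham libraries. Its mean was at least 8.79-fold higher than the mean floor of the sham libraries, but mutant replicate 2 held nearly all of it, and its call was lost without that library and when any 1 sham library was left out. Beside these lists, 3 of 15 monocyte markers were higher, and the dissociation list, 30 genes known to respond to tissue dissociation, summed to 2320 to 4084 CPM in mutant and 1190 to 2859 CPM in sham libraries with 6 higher and 2 lower. Ccl3 and Ccl4 are in that list. The part of infiltrating cells and of dissociation in the chemokine and cytokine values was not tested.

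Receptors for cytokines, chemotactic factors and microbial patterns moved in both directions: 12 of 42 were higher and 3 lower (median 0.58), against 7 and 6 without TMM scaling (median 0.22). Msr1, a scavenger receptor, rose most, from 1.59, 3.27 and 9.88 CPM in sham to 126, 325 and 238 CPM in mutant libraries (log2 fold change 5.53, SE 0.52, edgeR adjusted p = 1.4e-06). C5ar1, the receptor for complement C5a, went from 50.6 ± 25.5 to 241 ± 88.5 CPM (2.25), and Plaur, the urokinase receptor that takes part in fibrinolysis, from 3.26 ± 1.55 to 18.7 ± 4.15 CPM (2.52). Ptger4, a prostaglandin E receptor, and Il4ra, the interleukin-4 receptor chain, also rose (log2 fold changes 2.02 and 1.47). Lower members were Il6ra (-1.09), Il10ra (-1.20) and Tlr9 (-1.28), the chains that bind interleukin-6 and interleukin-10 and a sensor of DNA. The calls of Il6ra and Tlr9 were lost without mutant replicate 2 or 3, and that of Tlr9 also without sham replicate 3. Il10ra read 42.3, 28.6 and 34.4 CPM in mutant and 84.7, 70.7 and 87.3 CPM in sham libraries, with no overlap.

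Transcription factors of the early response were mostly not called. Of 21 NF-κB subunits and feedback genes, 2 were higher: Bcl3, a nuclear cofactor of NF-κB, at 15.2, 27.8 and 23.3 CPM against 1.72, 1.75 and 5.56 CPM (2.86), and the kinase gene Ikbke at 1.4 ± 0.425 against 0.164 ± 0.148 CPM (2.99). The list median was 0.15, and it was -0.26 without TMM scaling. Of 36 AP-1 and immediate early genes, 3 were higher (Dusp5, Fosl1 and Ier3) and Btg2 was lower, with a median of -0.04. Sham replicate 1 stood apart for several of them, and without it 4 were higher, none was lower and the median was 0.61. Btg2, an antiproliferative immediate early gene, read 125, 31.4 and 38.8 CPM in sham and 22.1, 4.68 and 26.5 CPM in mutant libraries, and its call was lost without sham replicate 1 or without mutant replicate 2. Fos, named after its values were seen, read 98.5, 4.71 and 8.95 CPM in sham and 17.9, 3.22 and 27.4 CPM in mutant libraries and was not called. Ier3 overlapped between groups, at 17.6, 11.4 and 45.2 against 13.8, 6.3 and 2.77 CPM. Fosl1 and Dusp5 were below 2 CPM in each of the 6 libraries. A fit of the 2 groups alone left 1 of these 36 genes called. Of 17 genes of the IL-6, IL-10 and STAT3 pathways, 5 were higher and 2, the receptor chains Il6ra and Il10ra, lower. The median was 0.16, and -0.28 without TMM scaling. The kinase gene Pim1, a STAT3 target, went from 2.74 ± 0.772 to 8.66 ± 1.57 CPM (1.65).

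Genes that handle heme, iron and oxidants were often higher, and those of the oxidase that makes superoxide were mostly not called. Of 30 genes regulated by NRF2 or acting on heme and oxidants, 12 were higher and 1 lower (median 0.87). Hmox1 (ENSMUSG00000005413, chromosome 8, 75093621 to 75100589), the enzyme that degrades heme, read 37.3, 37.4 and 65.6 CPM in mutant and 12.1, 13.2 and 17.8 CPM in sham libraries. The groups did not overlap, and the log2 fold change was 1.70 (SE 0.29, edgeR adjusted p = 0.00051). The glutathione peroxidase gene Gpx1, thioredoxin (Txn1) and its reductase (Txnrd1) rose by 1.35, 1.61 and 1.66 on the log2 scale. Gpx1 was the most abundant of these, at 414, 562 and 557 CPM against 182, 220.5 and 199 CPM. The lower member was Slc40a1, which encodes the iron exporter ferroportin: it read 18.8, 8.41 and 6.19 CPM in mutant and 46.6, 47.2 and 47.2 CPM in sham libraries, a log2 fold change of -2.07 (edgeR adjusted p = 0.00035). With the importer Slc39a14 at the other end of the list, the 2 metal transporters had the highest and the lowest fold change of its called members. Of 12 genes of the phagocyte NADPH oxidase, 1 was called, Cybb, which encodes the catalytic subunit. It read 12.3, 10.7 and 15.3 CPM against 2.68, 4.82 and 9.63 CPM (1.15, edgeR adjusted p = 0.027), and the call was lost without mutant replicate 3, without sham replicate 1, without sham replicate 2 and in a fit of the 2 groups alone. The median of the list was 0.04, and it was -0.10 with DESeq2's size factors and -0.38 without TMM scaling.

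Interferon-stimulated genes were higher, but chiefly through 1 library. Of 51 tested, 19 were higher and none lower (median 0.97). Their summed level was 1097, 952 and 2583 CPM in mutant replicates 1 to 3 and 491 to 831 CPM in sham libraries. Zbp1, a sensor of nucleic acids, read 11.2, 5.79 and 40.5 CPM against 0.797, 1.18 and 3.22 CPM (log2 fold change 3.43, SE 0.60, edgeR adjusted p = 0.00063). Bst2, the antiviral protein tetherin, read 72.1, 84.8 and 148 CPM against 28, 24.2 and 36.7 CPM (1.78). Slfn2, of the Schlafen family, read 20.4, 20.2 and 42.9 against 6.6, 5.62 and 13.5 CPM, and Lgals3bp, the smallest change past the threshold, 112, 134 and 264 against 57.6, 56.9 and 95.9 CPM. In each of these 4 genes and in Cxcl10, mutant replicate 3 was the highest of the group. Without that library 8 members were called and the median was 0.24. The count was 12 without sham replicate 2 and 8 in a fit of the 2 groups alone.

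For the genes of this list, the 250 bases before the start, from RefSeq on GRCm38.p6, were searched for the letters of the interferon-stimulated response element, GAAA and a second GAAA with 2 bases of any kind between them, on either strand with overlapping matches counted. A window was found for 16 of the 19 higher genes, and 11 of these (68.8%) held the motif. Over the list it was 19 of 39 (48.7%), and over all 27018 genes with a window 3.46%. The windows of the first 3 higher genes by adjusted p that held a match follow, with the motif, or its reverse complement with TTTC at both ends, in capitals. They lie at chr5:92348890-92349139 on the minus strand, chr8:71537473-71537722 on the minus strand and chr19:34640639-34640888 on the plus strand, and are printed 5′ to 3′ along the gene.
Cxcl10: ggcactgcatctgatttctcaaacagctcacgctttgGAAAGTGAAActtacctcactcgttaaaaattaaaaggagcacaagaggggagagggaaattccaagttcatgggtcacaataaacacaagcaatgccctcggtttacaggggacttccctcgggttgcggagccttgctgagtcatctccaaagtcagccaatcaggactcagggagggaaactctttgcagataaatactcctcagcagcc
Bst2: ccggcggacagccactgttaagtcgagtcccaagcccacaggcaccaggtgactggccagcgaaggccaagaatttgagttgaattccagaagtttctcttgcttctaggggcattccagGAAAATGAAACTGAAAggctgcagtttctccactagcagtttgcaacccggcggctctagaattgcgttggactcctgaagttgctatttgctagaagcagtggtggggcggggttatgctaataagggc
Ifit1: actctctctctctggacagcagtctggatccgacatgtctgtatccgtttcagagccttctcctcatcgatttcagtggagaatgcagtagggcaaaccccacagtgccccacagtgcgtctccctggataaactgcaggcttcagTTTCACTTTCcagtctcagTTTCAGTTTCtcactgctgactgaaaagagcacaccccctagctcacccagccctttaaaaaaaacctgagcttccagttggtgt
Ifit1, which encodes a protein that binds foreign RNA, read 3.39, 2.67 and 17.3 CPM in mutant and 0.669, 0.304 and 1.46 CPM in sham libraries. A match to these letters is a description of the sequence, and binding of a factor was not measured.

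Genes of the disease-associated state and of lipid handling were higher in part. Of 31, 13 were higher and none lower (median 0.81), and 8 were higher without TMM scaling. Ch25h, which makes 25-hydroxycholesterol, read 22.9, 26 and 42 CPM in mutant and 0.51, 0 and 0.176 CPM in sham libraries, the highest fold change of the list (6.99, SE 0.76). Lpl, lipoprotein lipase, read 148, 284 and 218 CPM against 4.49, 5.2 and 6.34 CPM (5.34), and the galectin gene Lgals3 29.8, 49.2 and 56 against 1.12, 4.4 and 6.44 CPM (3.49). Ctsb, a lysosomal protease, was the smallest change past the threshold, at 406, 747 and 648 against 197, 253 and 374 CPM (1.13), and lost its call without mutant replicate 2 or sham replicate 1. Apoe, named after its values were seen, read 313, 138 and 159 CPM in mutant and 108, 476 and 753 CPM in sham libraries. It overlapped and was not called.

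Of 21 complement and Fc receptor genes, 4 were higher and 1 lower (median 0.53). Fcgr4, an activating receptor for IgG, read 43.1, 76.6 and 94.5 CPM in mutant and 4.05, 6.38 and 11 CPM in sham libraries (3.31 on the log2 scale, edgeR adjusted p = 1.3e-05). Cfb, of the alternative complement pathway, was near the floor, at 1.42, 0.277 and 2.33 against 0.255, 0 and 0.0754 CPM. The lower gene was Fcrls, treated with the genes of chromosome 3 below. Among 25 integrins and adhesion genes, 5 were higher and 1, Selplg, lower. The median was 0.14, and -0.28 without TMM scaling. Fn1, which encodes fibronectin, read 39.3, 26.2 and 25.6 CPM against 0.637, 1.29 and 4.35 CPM (3.83), the hyaluronan receptor Cd44 30.0, 43.4 and 34.2 against 1.94, 3.64 and 7.44 CPM (3.04), and Itga5, the α chain of the fibronectin receptor, 14.6, 31 and 20.5 against 3.6, 4.29 and 6.06 CPM (2.24). Tgm2, a transglutaminase, read 35.4, 115 and 68 against 15.3, 13.7 and 17.4 CPM, with replicate 2 the highest. Fn1 is also one of the monocyte markers that were higher. Of 13 genes of MHC class II presentation none was higher and 2 were lower, H2-Oa and H2-Ob, which form an inhibitor of peptide loading. H2-Oa read 7.07, 6.62 and 5.42 CPM against 20.3, 18 and 16.5 CPM (-1.52) and H2-Ob 5.64, 3.4 and 2.49 CPM against 10.6, 10.9 and 11.6 CPM (-1.51). The list median was -0.36, and between 0 and 4 members were called when 1 library was left out: 0 without mutant replicate 3 and 4 without mutant replicate 1.

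**Figure D3:**
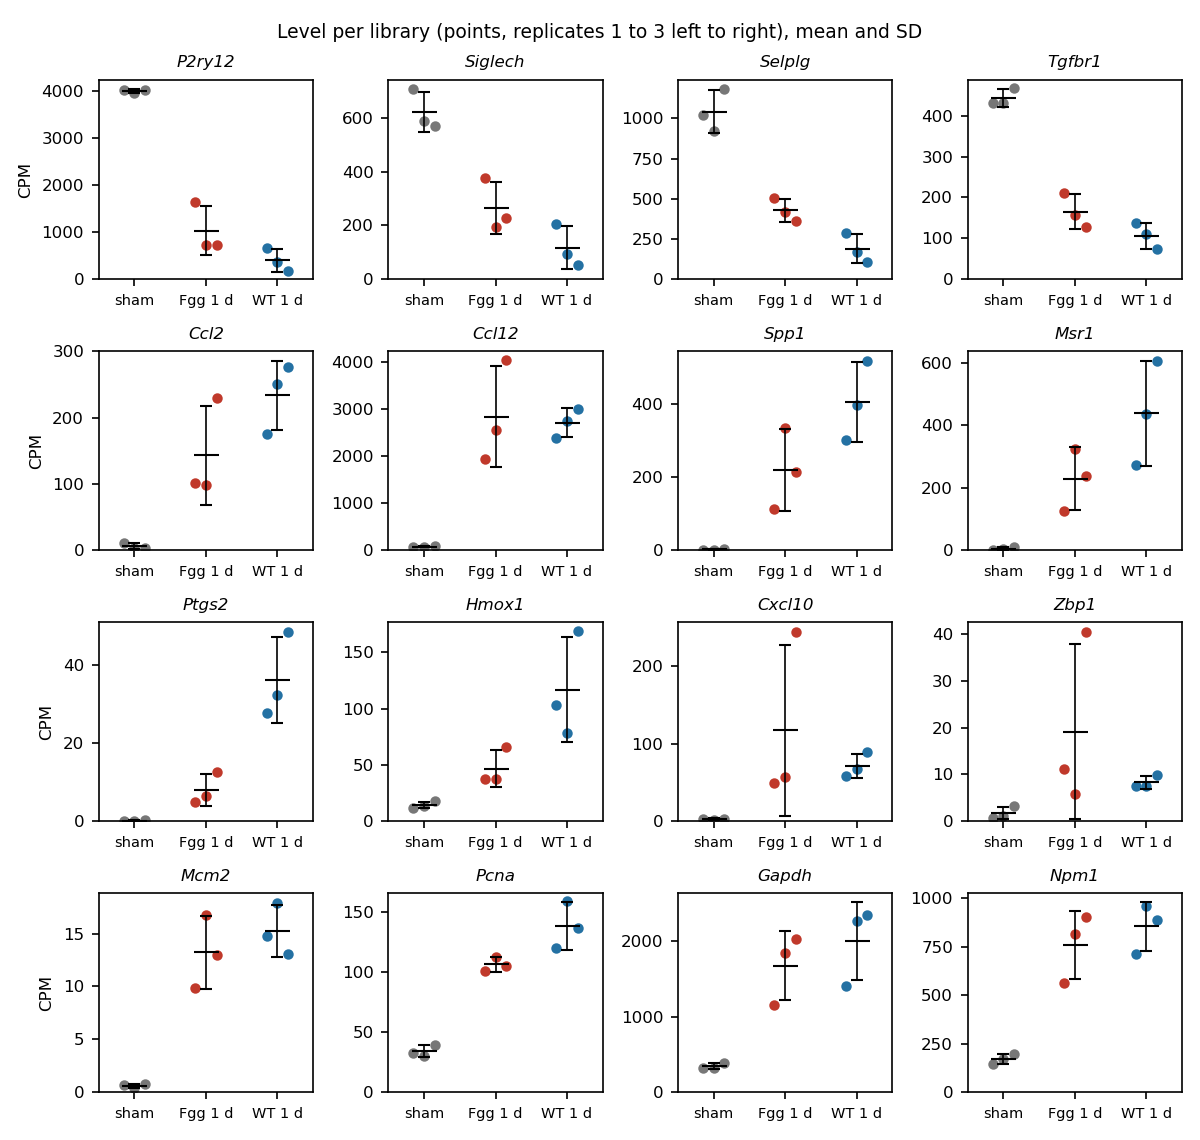
Level in CPM (y axis) of 16 genes in each library of sham mice (grey), Fgg mutant mice at 1 d (red) and WT mice at 1 d (blue), with the group mean and SD in black. P2ry12, Siglech, Selplg and Tgfbr1 are below sham in every mutant library, the 12 others are above it, and Cxcl10 and Zbp1 have 1 mutant library, replicate 3, far above the other 2.

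Of 37 cell cycle genes, 26 were higher and 1 lower (73.0% called), with a median of 1.96. Without TMM scaling 17 were higher and 1 lower. The helicase subunit genes Mcm4 and Mcm6 went with Mcm2. Mcm4 read 14.6, 22.1 and 20.6 CPM in mutant and 3.03, 2.24 and 3.07 CPM in sham libraries (2.78, edgeR adjusted p = 9.0e-07), and Mcm6 27.6, 37.8 and 40.5 against 4.18, 1.29 and 3.17 CPM (3.61). Pcna, the sliding clamp of DNA polymerases, read 101, 113 and 105 CPM against 32.6, 30.2 and 39.8 CPM, a narrow range in both groups (1.64, SE 0.16). Cdc6, which loads the helicase onto origins, had 4.5, 2.42 and 3.09 CPM in mutant libraries and 0, 0 and 1 counts in sham libraries, and no fold is given. The lower member was Cdkn1b, which encodes the inhibitor p27, at 5.71, 4.96 and 4.86 CPM against 15.4, 11.8 and 11.5 CPM (-1.31). Cdkn1a, which encodes the inhibitor p21 and was named after its values were seen, went the other way, with 228, 414 and 673 CPM against 37.8, 33.3 and 45.4 CPM (3.49). Among members of mitosis, Ccnb1, Ccnb2, Cdc20 and Plk1, also named after their values were seen, were not called (log2 differences 0.26, -0.42, 0.57 and 1.32), and Mki67 was (9.47, 5.49 and 10.0 CPM against 1.85, 0.835 and 4.27 CPM, 1.83).

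The same windows were searched for the letters of an E2F site, TTTNGCGC, and its reverse complement GCGCNAAA. A window was found for 19 of the 26 higher genes of this list, of which 3 (15.8%) held the motif. The share was 4 of 29 (13.8%) over the list, 1.31% of all genes with a window and 2.06% of the tested genes with a window. The 3 windows lie at chr1:128359706-128359955 on the minus strand, chr17:56304063-56304312 on the plus strand and chr8:75109259-75109508 on the plus strand, and the capitals mark the motif, which overlaps on both strands in Mcm6 and Mcm5.
Mcm6: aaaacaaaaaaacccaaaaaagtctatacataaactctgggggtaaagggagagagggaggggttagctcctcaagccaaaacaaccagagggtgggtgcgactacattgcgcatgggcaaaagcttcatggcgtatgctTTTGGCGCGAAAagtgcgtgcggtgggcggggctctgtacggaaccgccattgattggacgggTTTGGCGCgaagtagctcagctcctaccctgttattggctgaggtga
Uhrf1: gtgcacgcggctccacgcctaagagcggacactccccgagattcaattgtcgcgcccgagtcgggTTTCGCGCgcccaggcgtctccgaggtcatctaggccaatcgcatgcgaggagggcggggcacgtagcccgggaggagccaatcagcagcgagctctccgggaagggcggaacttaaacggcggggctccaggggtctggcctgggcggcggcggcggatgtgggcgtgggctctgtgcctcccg
Mcm5: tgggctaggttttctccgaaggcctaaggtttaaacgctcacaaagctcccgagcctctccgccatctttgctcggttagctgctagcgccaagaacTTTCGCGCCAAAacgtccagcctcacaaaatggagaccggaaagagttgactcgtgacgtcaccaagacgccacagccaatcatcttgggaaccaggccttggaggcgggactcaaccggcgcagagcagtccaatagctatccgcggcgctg
Mcm5, also a helicase subunit, read 7.26, 12.5 and 10.8 CPM in mutant and 0.765, 0.494 and 1.53 CPM in sham libraries (3.43). Uhrf1, which keeps DNA methylation through replication, read 6.95, 7.78 and 6.59 CPM against 0.255, 0.152 and 0.251 CPM (4.98). Most of the higher cell cycle genes with a window, 16 of 19, did not hold these letters in it.

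Genes that build ribosomes and translate RNA rose by smaller amounts and more evenly. Of 42 genes of ribosome biogenesis, 27 were higher and none lower (64.3% called, median 1.18). In 39 of the 42, all mutant libraries were above all sham libraries, where 15.7% of all genes tested had that order. Npm1, the nucleolar chaperone nucleophosmin, read 566, 814 and 904 CPM in mutant and 146, 172 and 197 CPM in sham libraries (2.15, SE 0.19, edgeR adjusted p = 1.0e-06). Ncl, nucleolin, rose from 67.9 ± 8.18 to 267 ± 57.2 CPM (1.97), and Nop58 and Nhp2, of the small nucleolar RNA particles, by 1.77 and 1.81 on the log2 scale. Tsr1 was the smallest change past the threshold (1.02). Of 25 translation factors, 17 were higher and none lower (68.0% called, median 1.27). Eif5a read 105, 191 and 189.6 CPM against 34.1, 40.1 and 41.4 CPM (2.07, edgeR adjusted p = 8.9e-06), and the initiation factor genes Eif3a, Eif2s1 and Eif4g1 had log2 fold changes of 1.65, 1.45 and 1.29. Because most members changed by little more than the fold asked, these counts moved with the scaling: 8 genes of ribosome biogenesis and 5 translation factors were higher without TMM scaling, when the medians were 0.76 and 0.82. Without mutant replicate 2, the first count was 17. Several of these genes have processed pseudogenes in the mouse genome, and how reads were divided among such copies was examined here only for the genes of chromosome 3 below.

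Of 32 genes of glycolysis and the response to hypoxia, 13 were higher and 1 lower (median 1.21). Gapdh read 1157, 1838 and 2021 CPM in mutant and 325, 327 and 390.4 CPM in sham libraries (2.27, SE 0.22, edgeR adjusted p = 1.7e-06). The glycolytic enzyme genes Pgk1, Tpi1 and Pkm and the lactate dehydrogenase gene Ldha rose by 2.69, 2.22, 2.97 and 2.43 on the log2 scale. Mutant replicate 1 was the lowest of its group in all 5, and was above sham in each. The lower member was Aldoc, the aldolase of astrocytes, at 1.66, 2.87 and 1.73 CPM against 7.04, 3.83 and 5.0 CPM, which is one of the astrocyte markers given above. Its call was lost without mutant replicate 1 or 3 and without sham replicate 1 or 3. Hexokinases and the hypoxia factor gene Hif1a, named after their values were seen, were not called, with log2 differences of -0.75 for Hk1, -0.10 for Hk2, 0.37 for Hk3 and 0.36 for Hif1a.

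Of 36 genes of the unfolded protein response and chaperones, 19 were higher and none lower (median 1.32), and 11 were higher and 1 lower without TMM scaling. Hspd1, the mitochondrial chaperone HSP60, read 109.5, 182 and 233 CPM in mutant and 39, 38 and 49.5 CPM in sham libraries (2.05, edgeR adjusted p = 9.8e-06). Cct2 and Tcp1, subunits of the cytosolic chaperonin, rose by 1.62 and 1.36 on the log2 scale, and Sdf2l1, a cofactor of the endoplasmic reticulum, by 1.79. Ddit3 and Xbp1, factors of the unfolded protein response named after their values were seen, were not called (log2 differences -1.04 and -0.11). Of 25 genes of cholesterol synthesis, 3 were higher and none lower (median 0.68). Sqle, squalene epoxidase, read 3.92, 6.12 and 5.18 CPM against 0.797, 1.4 and 1.43 CPM (2.06). Fdps, which makes farnesyl diphosphate, read 6.32, 5.99 and 5.26 against 2.04, 1.86 and 2.49 CPM.

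Genes of chromosome 3, which carries Fgg, need care in this contrast, because the mutated gene lies among them. Chromosome 3 held 1462 of the genes tested (6.14%), with 71 higher and 22 lower, so 6.36% of its genes were called against 6.64% of all. Without chromosome 3 the calls numbered 1487. P2ry12, P2ry13, Il6ra and Fdps, described above, lie on it. Several genes of chromosome 3 have near-identical copies on other chromosomes, and for these the value of 1 copy and that of the family differed. Rps3a1 (ENSMUSG00000028081, chromosome 3, 86137940 to 86142702), which encodes ribosomal protein S3A, read 91.1, 122 and 137 CPM in mutant and 199.8, 274 and 269.6 CPM in sham libraries. Taken alone it was called lower (-1.09, SE 0.19, edgeR adjusted p = 0.00071). Its copies Rps3a2 (chromosome 14) and Rps3a3 (chromosome 13) read 216, 244 and 274 and 211, 284 and 303 CPM in mutant libraries, against 5.71, 7.25 and 11.9 and 0.733, 0.987 and 1.68 CPM in sham libraries. Summed over the 3 genes, the level was 628 ± 99.4 CPM (SD, n = 3) in mutant and 257 ± 44.2 CPM in sham libraries, which is higher by 1.29 on the log2 scale (SE 0.17, edgeR adjusted p = 5.6e-05). The direction of Rps3a1 was opposite to that of its family.

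The sequences show how little separates the copies. In the GENCODE M21 transcripts, Rps3a2 differs from Rps3a1 at 4 of the 795 bases of the coding sequence (T216C, T534C, A645T and T668C, counted from 1 at the start codon, with the base of Rps3a1 first). Rps3a3 differs at 9 (T216C, T260C, C363T, A427T, T534C, G582T, A660G, C762T and G792A). The 90 bases from position 579 to 668 hold 4 of the positions that differ, in capitals.
Rps3a1: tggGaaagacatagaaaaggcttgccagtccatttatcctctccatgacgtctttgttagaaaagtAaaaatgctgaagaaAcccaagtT
Rps3a2: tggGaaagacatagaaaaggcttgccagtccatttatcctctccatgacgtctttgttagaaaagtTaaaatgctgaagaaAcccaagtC
Rps3a3: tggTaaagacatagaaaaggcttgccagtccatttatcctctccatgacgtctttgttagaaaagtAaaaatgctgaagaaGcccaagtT
A read within such a stretch meets few bases that tell the copies apart. Which copy the reads of the mutant mice came from was not tested, since the reads themselves were not analysed here.

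Further pairs behaved alike. Rpl34-ps1 (chromosome 6), 99.4% identical to Rpl34 on chromosome 3, read 232, 156 and 355 CPM in mutant and 2.29, 5.96 and 7.24 CPM in sham libraries, and Rpl34 153, 228 and 239 against 102, 146 and 159 CPM. Their sum was 454 ± 121 CPM against 141 ± 32.3 CPM, higher by 1.69 on the log2 scale (edgeR adjusted p = 5.9e-05). Gm3608 (chromosome 1), 99.5% identical to Capza1, which encodes an actin capping protein, read 41.1, 77.3 and 67 CPM against 2.07, 2.7 and 3.87 CPM. Capza1 itself overlapped (54.2, 68.8 and 61.6 against 65.5, 64.5 and 82 CPM, log2 difference -0.20), and the sum was higher by 0.75 (123 ± 25.8 against 73.5 ± 10.6 CPM), short of a call. Gm5900 (chromosome 7) and Hist1h2al (chromosome 13) were called higher too, at 4.97, 3.3 and 6.83 and 10.0, 4.28 and 18.6 CPM against 0.478, 0.342 and 0.176 and 0.255, 0 and 0.453 CPM. They are 99.5% and 99.4% identical to Lamtor3 and Hist2h2aa1 of chromosome 3, and the sums with these did not differ past the threshold (log2 differences -0.10 and -0.19). Hist2h2aa2 matches Hist1h2al equally well and was included in its sum with Hist2h2aa1.

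**Figure D4:**
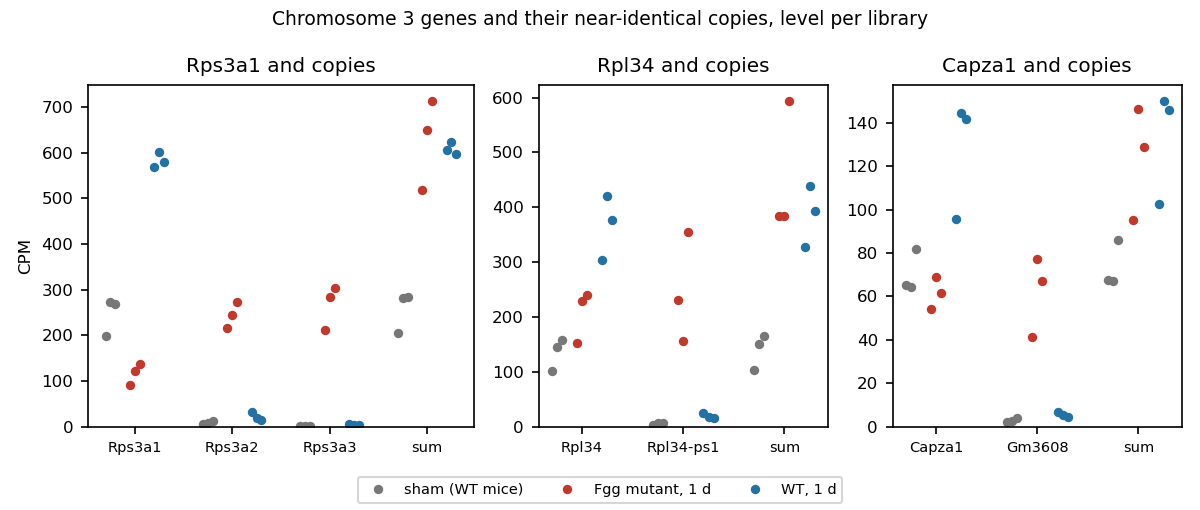
Level in CPM (y axis) of 3 chromosome 3 genes, their near-identical copies and the sum, in each library of sham mice (grey), Fgg mutant mice at 1 d (red) and WT mice at 1 d (blue). The copies Rps3a2, Rps3a3, Rpl34-ps1 and Gm3608 are at 31.3 CPM or less in every sham and WT library and above 40 CPM in every mutant library, while the sums of mutant and WT libraries overlap.

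Fcrls (ENSMUSG00000015852, chromosome 3, 87250758 to 87263738), a microglial gene of the Fc receptor-like family on chromosome 3, had different levels in all 3 groups. It read 196, 281 and 229.5 CPM in mutant, 626, 664 and 816 CPM in sham and 901, 1226 and 1074 CPM in WT libraries at 1 d. The mutant level was -1.58 on the log2 scale relative to sham (SE 0.28, edgeR adjusted p = 0.00082), and the WT level lay above sham. Ap1ar, an adaptor-associated regulator of actin on the same chromosome, was higher in mutant libraries, at 24.3, 28.1 and 28.6 CPM, than in sham (9.15, 9.38 and 10.6 CPM) and WT libraries (13.1, 11.1 and 9.68 CPM). Gbp2b, an interferon-induced GTPase of chromosome 3, read 1.51, 0.453 and 3.25 CPM in mutant libraries, and in sham and WT libraries together 5 counts were found, all in sham replicate 1.

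The libraries of injured WT mice show which of these values the genotype accompanied. Between mutant and WT microglia at 1 d, 13 of 23815 genes (0.0546%) were called, by a log2 difference beyond 1 at an edgeR adjusted p under 0.1, 8 higher and 5 lower in mutant mice, and 16 with the replicate number as a block (8 higher and 8 lower, 12 of the 13 among them). The count rested on single libraries: it was 89 without WT replicate 1 and 6 without WT replicate 3, and DESeq2 called 87 genes. The contrast of WT microglia at 1 d with the same sham libraries called 2923 genes (12.3%), 1920 higher (8.06%) and 1003 lower (4.21%). The contrasts share libraries, so their calls are not independent. Of the 13 genes called between the genotypes, 11 were also called between mutant microglia and sham. None of the 20 protein-coding genes named above, chosen by adjusted p among those whose groups did not overlap, was called between the genotypes. Their log2 differences ran from -1.04 to 0.80, and the lowest adjusted p of edgeR was 0.21. Of the 574 listed genes, 3 were called: Fcrls (-2.18, SE 0.29, edgeR adjusted p = 0.0014), Ptgs2 (-2.20, SE 0.40, edgeR adjusted p = 0.063) and Inhba (-4.94, SE 0.96, edgeR adjusted p = 0.099). Ptgs2, for one, read 27.6, 32.2 and 48.5 CPM in WT libraries, above each mutant library. Inhba, which encodes the activin A chain, was near the floor in mutant and sham libraries, at 0.209, 0.0252 and 0.161 and 0, 0.038 and 0 CPM, and read 8.05, 0.905 and 4.14 CPM in WT libraries.

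For most members the genotypes could not be told apart gene by gene, and a missed threshold does not show that they were equal. Hmox1 read 103, 78.7 and 169 CPM in WT libraries at 1 d, each above each mutant library (log2 difference -1.32, SE 0.28, edgeR adjusted p = 0.21), and was called with the replicate number as a block and by DESeq2. Ccl3 read 609, 621 and 824 CPM in WT libraries (-1.47, SE 0.39, edgeR adjusted p = 0.66), and was called by DESeq2 (-1.49, adjusted p = 0.031). Il1rn read 151, 152 and 282 CPM (-2.02, edgeR adjusted p = 0.45). P2ry12 read 659, 357 and 169 CPM in WT libraries, below each mutant library (1.38, SE 0.43, edgeR adjusted p = 0.8), and was called without WT replicate 1 (1.97, edgeR adjusted p = 0.093). As medians over the tested members, the log2 difference of mutant from WT microglia was 0.65 for homeostatic genes, 0.68 for interferon-stimulated genes, -0.54 for chemokine ligands and -1.01 for cytokines, against 0 over all genes tested. The interferon-stimulated genes summed to 1150, 1324 and 1593 CPM in WT libraries, so mutant replicates 1 and 2 lay below every WT library and replicate 3 above them. The median was nearer to 0 for growth: -0.16 for ribosome biogenesis, -0.27 for translation factors, -0.23 for the cell cycle and -0.18 for chaperones. Without TMM scaling the median of all genes in this contrast moved by 0.297, more than the size of each of these growth medians. Other lists also lay below 0: -0.64 for AP-1 and immediate early genes, -0.49 for NRF2, heme and antioxidant genes and -0.34 for glycolysis and hypoxia.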

How the data were processed

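Microglia sorted as CD45low CD11b+ were profiled by RNA-seq. Per the labels and methods, reads were trimmed with Trim Galore, handled in the nf-core/rnaseq pipeline with STAR and salmon on GRCm38, and analysed by the study in R 4.2.0 with DESeq2 1.36.0. The authors deposited estimated counts per gene from salmon (expected counts), in which transcript length is divided out within a library and each library sums to its mapped reads. The values carry no scaling across libraries, and were rounded to integers before testing.

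Of 45706 gene identifiers, 45143 matched GENCODE M21. Tests were run with edgeR 4.0.16 under R 4.3.3 (TMM, glmQLFit, glmQLFTest, Benjamini-Hochberg adjustment) in 1 fit of all 21 libraries with 7 group means, for the 23815 genes with at least 5 counts over all libraries. The standard error was taken from the log2 fold change and its F statistic. Replicates had a common biological coefficient of variation of 0.643, and tests had 14 residual degrees of freedom among libraries. Against sham, a call needed a log2 fold change beyond 1 in either direction at an adjusted p under 0.05, and between genotypes beyond 1 at under 0.1. Replicates within a group differed by more than counting noise (chi-square per degree of freedom 3.59 to 8.14), and their log2 CPM correlated across genes with r of 0.930 to 0.962. Libraries are pools of 2 brains, so p-values measure the spread between pools.

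The members, the gene lists and the tests were chosen with earlier results of these data known. The 21 gene lists and 11 marker lists were written from general knowledge. Genes named are the 10 protein-coding genes in each direction with the smallest adjusted p whose groups do not overlap; of each list that is no marker list up to 4 called members by adjusted p and the highest and lowest fold change among the called; the genes the paper names; Fgg, Itgam and Itgb2; and genes called between genotypes with their chromosome 3 copies. Of the genes so chosen, 1 is not reported here. Promoters were printed for the first 3 called members by adjusted p with a match. Copies were found by aligning GENCODE M21 transcripts. Summed copies were an alternative added after the data were seen.

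Deviations from group means of same-numbered libraries correlated across genes at 0.45, 0.23 and 0.13 between Fgg and WT mice at 1 d. Between Fgg and sham mice they correlated at 0.07, -0.01 and 0.02, and these were not taken as paired. Other-numbered Fgg and WT libraries ran from -0.34 to 0.18, the highest for Fgg replicate 2 with WT replicate 3. The count between genotypes is therefore also given with the replicate number as a block. Differences, SEs and adjusted p between genotypes came from the fit without that block, except where another setting is named. On simulated data with 200 of 22488 genes changed by 2 on the log2 scale between mutant and sham libraries, edgeR recovered 62.0% and called 5 others. It called 0 where none was changed. DESeq2 recovered 71.5% and called 39 others, and it called 11 where none was changed. The changed genes were drawn from those above a bar on sham counts, as many raised as lowered. Recovery near the floor, or with a split as uneven as the one found, was not tested.

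Alternatives were DESeq2 1.42.0, its size factors, no TMM factors, removal of ribosomal RNA genes, other count filters, the replicate block, fits of fewer groups, other thresholds, glmTreat, removal of chromosome 3 or pseudogenes, and leaving out each library.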

Additional observations from a re-analysis of the deposited data

Results flagged for a closer look

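The 13 genes below differed between Fgg γ390–396A and WT microglia at 1 d in the contrast of these groups within the fit of all 21 libraries. A fit of the 2 groups alone called 8 genes, 7 of them among the 13. Values are log2 differences, mutant minus WT. Those of chromosome 3 were Rps3a1 at -2.32, Fcrls at -2.18, Ap1ar at 1.25, Capza1 at -1.05 and Gbp2b at 8.75. The last is a fitted value against WT libraries with no count and is no bound. The near-identical copies of chromosome 3 genes were Rps3a3 at 6.14, Rps3a2 at 3.49, Gm3608 at 3.47, Rpl34-ps1 at 3.63, Gm5900 at 3.93 and Hist1h2al at 6.7. The others were Ptgs2 at -2.2 (chromosome 1) and Inhba at -4.94 (chromosome 13). With the near-identical copies summed, the family of Rps3a1 differed by 0.043, that of Capza1 by -0.11, that of Lamtor3 by 0.02, that of Rpl34 by 0.23 and that of Hist2h2aa1 by 0.58, none past the threshold, so for these the count of 1 copy and of the family differ. Fcrls was then the 1 gene still called, while the differences of Ap1ar (1.25, edgeR adjusted p = 0.17), Ptgs2, Inhba and Gbp2b (-2.2, -4.94 and 8.75, edgeR adjusted p = 0.22 for each) kept their size. Gbp2b was not called with the replicate number as a block (edgeR adjusted p = 0.12). Over all alternatives tried, Inhba lost its call in 10, Gbp2b in 9, Capza1 in 8, Ptgs2 in 7 and Ap1ar in 6.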

How the results depend on the processing

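Against sham, 1582 genes were called, and between 1118 (without mutant replicate 3) and 1958 (without mutant replicate 1) when 1 library was left out. DESeq2 called 2125 (1402 shared), DESeq2's size factors 1477, library size alone 1306 (844 shared), the replicate block 1613 and summed copies 1577. A bar of 1.5 on the log2 fold change left 834 genes, of which 142 were listed (216 at the main bar). edgeR's glmTreat, which tests for a log2 fold change beyond 1, left 287 genes, of which 69 were listed. These were 281 higher and 6 lower, against 1308 and 274 in the main test. With glmTreat, 1 homeostatic gene and 0 genes of microglial identity and the TGF-β pathway were lower. P2ry12, Selplg, Tgfbr1 and Glul lost their call in it, as did higher genes such as Hmox1 and Bst2. Over the 6 libraries left out in turn, 168 to 227 listed genes were called. The replicate numbers do not pair mutant and sham libraries. Between genotypes, 13 genes became 87 with DESeq2, 8 in a fit of the 2 groups, 7 without chromosome 3, 5 without pseudogenes, 1 with copies summed and 6 to 89 with 1 library left out (89 without WT replicate 1, 6 without WT replicate 3). The cause was not tested, except that removal takes tested genes away. Directions reversed for Rps3a1 with copies summed (1.29 against sham and 0.043 against WT), for Capza1 with copies summed (0.75 against sham), for Itgb2 without TMM factors (-0.28 against sham, 0.29 against WT) and for Itgam against WT without TMM factors (0.29). With 1 library left out, the difference from WT ran from -0.11 to 0.048 for Itgam and from -0.054 to 0.026 for Itgb2. Of the values of named genes against sham under the alternatives, 2174 stayed on the same side of the threshold with the same direction. A further 172, of 56 results, were no longer past it. The depth limits levels below 0.0448 to 0.121 CPM.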
